A study of Mus musculus with 16 samples.

Results

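The Toll-like receptor genes and the genes of the LPS co-receptors CD14 and MD-2 were followed through an RNA-immunoprecipitation and sequencing (RIP-seq) experiment on mouse macrophages. The 10 genes were chosen by their symbols in the deposited 3′-UTR count table (Tlr1, Tlr2, Tlr3, Tlr4, Tlr6, Tlr7, Tlr8, Tlr9, Cd14 and Ly96, the gene of MD-2), and all 10 were found among 14925 genes. The cells were bone marrow-derived macrophages (BMDMs) of the strain given as C57BL/6J 129, grown from the marrow of mouse femurs for 7 days in medium conditioned by L cells, which supplies M-CSF. One WT culture, numbered 76, and one full Cpeb4-/- culture (CPEB4 KO), numbered 73, were left untreated or were given 10 ng/ml of E. coli LPS for 9 h. From each of these 4 conditions the RNA of the lysate (Input) and the RNA precipitated with an anti-CPEB4 antibody (RIP) were sequenced, and the KO RIP served as the control without antigen. Every one of these 8 libraries was sequenced on lanes 7 and 8, which makes 16 samples, and the deposited counts add the lanes together. There was thus 1 library per group and no replicate, so that no difference below could be tested, and all intervals are 95% intervals that cover the counting error only.

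Toll-like receptors are membrane proteins that recognise microbial molecules and pass the signal on through the adaptors MyD88 and TRIF. TLR4 senses LPS at the cell surface together with MD-2, and CD14 hands LPS over to this complex. TLR1, TLR2 and TLR6 recognise bacterial lipoproteins at the surface, whereas TLR3, TLR7, TLR8 and TLR9 sense nucleic acids in endosomes. CPEB4 is an RNA-binding protein of cytoplasmic polyadenylation elements (CPEs), which are U-rich sequences of the 3′-UTR, and a RIP with its antibody asks which mRNAs are bound.

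Only Tlr3 and Tlr4 carried a CPE prediction in the deposited annotation, and both were of the repression type. Their counted 3′-UTR regions were the longest of the members, with 1248 bases in Tlr3 (chr8:45395665-45396912, minus strand, mm10) and 1321 bases in Tlr4 (chr4:66841480-66842800, plus strand). Of the regions of all genes within 20% of the length of Tlr3, 32.3% had a prediction, and of those like Tlr4 32.9% did. A search of the GRCm38.p6 sequence on the transcript strand for the consensus CPEs TTTTAT and TTTTAAT found 6 in Tlr3 and 4 in Tlr4. At least 1 such element was present in 65.8% of the regions as long as that of Tlr3 and in 67.6% of those as long as that of Tlr4, whereas as many elements were present in 2.95% and 13.0% of them.

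The windows below, of 30 bases each and written 5′ to 3′ as DNA, show the closest pair of consensus CPEs, the consensus CPE nearest to the 3′ end and the last polyadenylation hexamer (AATAAA or ATTAAA) of Tlr4 and Tlr3. Capitals mark the element. They are shown because Tlr4 was the receptor gene of the 10 with the most reads in the untreated RIPs and Tlr3 the one with the most in the RIPs after LPS.
Tlr4, first CPE of the pair (chr4:66841912-66841941): tttcatcttccaTTTTATgtcattttcttt
Tlr4, second CPE of the pair (chr4:66841940-66841969): tttcttttttttTTTTATctaattctataa
Tlr4, last CPE (chr4:66842269-66842298): gatagaaatatTTTTAATcaggagggaaaa
Tlr4, last hexamer (chr4:66842770-66842799): acaagatctaacAATAAAaattttgaaaca
Tlr3, first CPE of the pair (chr8:45396617-45396646): ggttttaaatatTTTTATataaataagact
Tlr3, second CPE of the pair (chr8:45396594-45396623): taagactgagagTTTTATaaatgtaatttt
Tlr3, last CPE (chr8:45395803-45395832): tgatagatggcaTTTTATtacttgataaaa
Tlr3, last hexamer (chr8:45395673-45395702): agaacactagtcAATAAAgtgtctttgtgg

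The CPEs of a pair were 22 bases apart in Tlr4 and 17 bases apart in Tlr3. The last hexamer ended 13 bases before the end of the region in Tlr4 and 20 bases before it in Tlr3. The last consensus CPE ended 514 bases before the end in Tlr4 and 150 bases before it in Tlr3. A shorter deposited region of Tlr3 (1002 bases, chr8:45395911-45396912) held 252 of the 254 reads and 5 of the 6 consensus CPEs. The last CPE and the last hexamer of Tlr3 shown above lie outside that shorter region. Reads in the part shared by both regions do not tell which form they came from. The AU-rich pentamer ATTTA was found 5 times in Tlr3 and 2 times in Tlr4. In their length classes 78.0% and 79.1% of the regions held at least 1, and 12.2% and 55.1% held as many. Tlr7 and Cd14 held 1 pentamer each, and 40.8% and 27.5% of the regions of their lengths held at least 1. The G-type CPE TTTTGT was not found in the counted region of Tlr4. It occurred 5 times in Tlr3, and as many were present in 4.38% of the regions of that length. Of the other members only Tlr2 held a G-type CPE, 1 time and 34 bases before the end of its region. At least 1 was present in 10.9% of the regions of its length.

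The other 8 members had no consensus CPE in their counted regions, all of which were at most 407 bases long. Tlr7 (407 bases, chrX:167304929-167305335, minus strand) held 1 non-consensus CPE, out of the search letters TTTTACT, TTTTAAAT, TTTTAAGT and TTTTCAT, and 17.1% of the regions of its length held at least 1 of these. A consensus CPE was present in 35.2% of the regions as long as that of Tlr7. This share was 22.98% at the length of Tlr9, 19.0% at that of Cd14 and 15.4% at that of Tlr2. It was 8.26% at the length of Ly96, 6.29% at that of Tlr8, 4.59% at that of Tlr6 and 2.27% at that of Tlr1. The letters absent from these windows say nothing about CPEB4 itself.
Tlr7, non-consensus CPE (chrX:167305271-167305300): ggtacctgaagTTTTCATaaaggtttccat

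**Figure D1:**
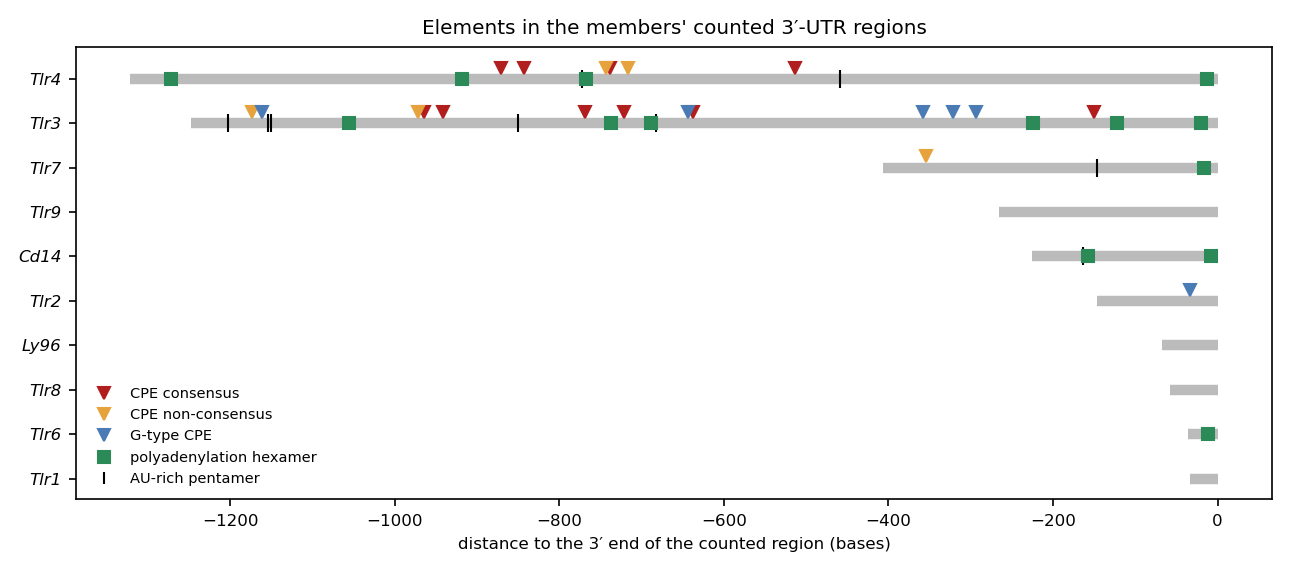
Elements found by sequence search in the counted 3′-UTR region of each member, against the distance in bases to the 3′ end of the region (grey bar, whole region). Triangles are CPEs, squares polyadenylation hexamers and ticks AU-rich pentamers, and consensus CPEs are seen only in Tlr4 (4) and Tlr3 (6).

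In GENCODE M21, of the same build, the counted regions of Tlr3, Tlr4, Tlr7 and Tlr8 matched the longest 3′-UTR that follows the same stop codon. Those of Tlr2, Tlr9, Cd14 and Ly96 covered from 91.9% to 99.3% of it. The region of Tlr1 covered 20.5% (34 of 166 bases) and that of Tlr6 3.24% (36 of 1111 bases), so that most of the 3′-UTR of these genes in that annotation was not counted. No other annotated gene overlapped a member's region on either strand. The longest exact run shared by any pair of members, including the 99 bases on each side that a read of 100 bases can reach, was 13 bases.

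The libraries held from 467696 (KO RIP, untreated) to 2492300 (WT RIP, LPS) 3′-UTR reads, and levels are given as counts per 1000000 of these (CPM). The 3′-UTR reads were 48.9% and 70.1% of the library total in the untreated and LPS-treated WT RIP, 27.3% and 31.8% in the KO RIP, and from 46.4% to 51.1% in the Inputs. Members were covered thinly, and only 5 of the 10 had the 10 reads asked of a pair of Inputs, in either genotype. The 7 macrophage markers found in the table (of 8 symbols, Adgre1 and its older name among them) summed to between 1572 and 4447 CPM in every library. Of the B cell, T cell, neutrophil, dendritic cell and fibroblast markers the table held 3, 3, 1, 2 and 1, and each list summed to at most 6.41 CPM in any library. Since the cells were measured in bulk, fewer cells of a type and less RNA per cell cannot be told apart. The 3′-UTR of Cpeb4 itself was counted in the KO as well, with 69 and 79 Input reads (52.0 and 52.6 CPM) against 121 and 258 (130.2 and 136.0 CPM) in WT. What part of the gene the allele lacks is not given in the sources used here, so these reads do not check the label.

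**Figure D2:**
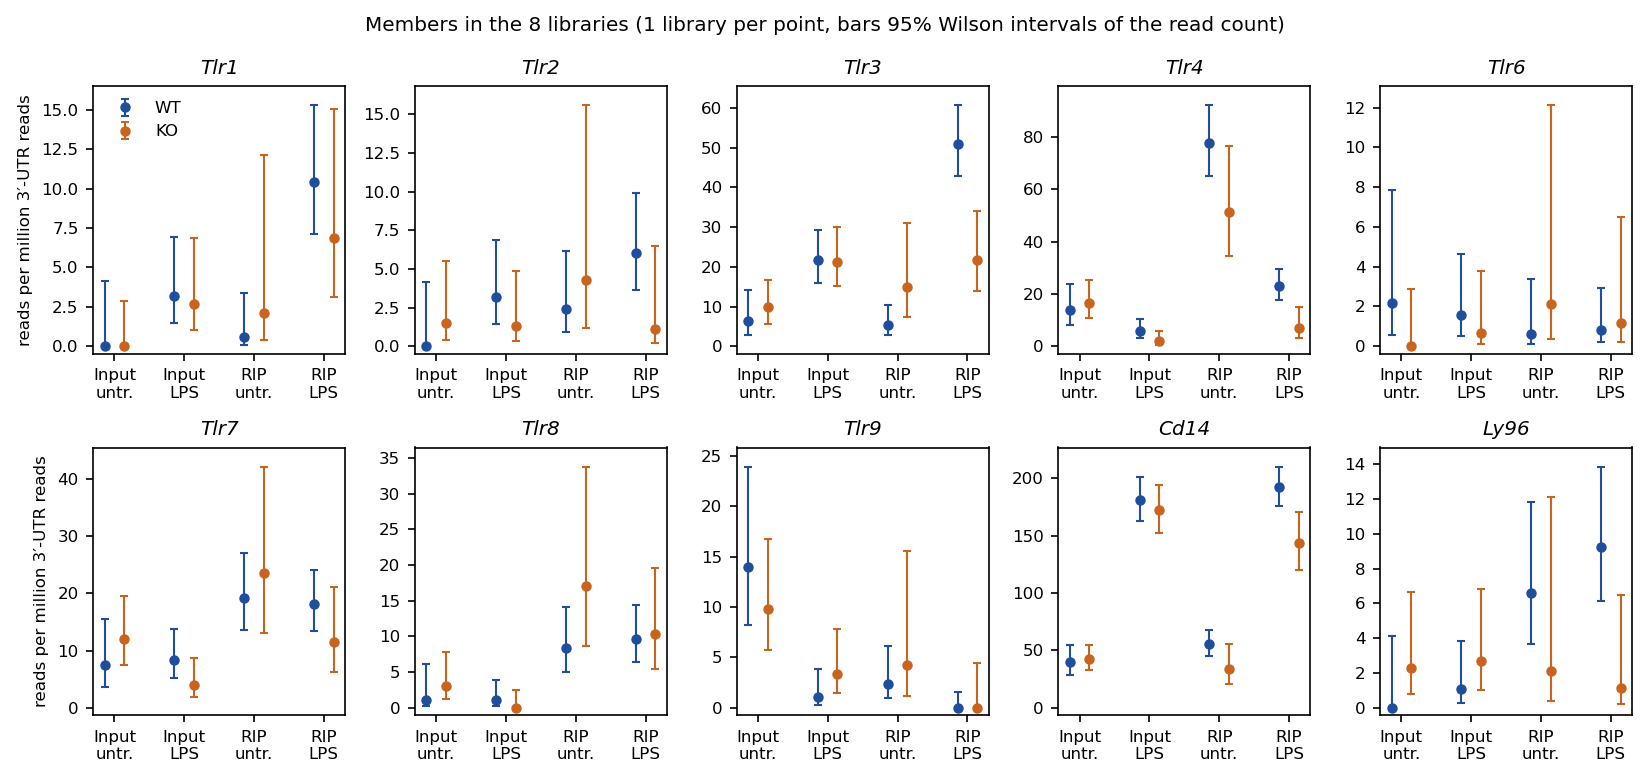
Level of each member in the 8 libraries, in CPM, with WT in blue and KO in orange. Each point is 1 library, bars are 95% Wilson intervals of the read count, and the vertical scale differs between genes. Cd14 reached 181 and 172 CPM in the LPS Inputs, and Tlr4 was highest in the untreated RIPs.

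Per kilobase, with 99 bases added to each region for the read overhang, Cd14 was the most abundant member in all 4 Inputs. It stood at 123 CPM per kb in untreated WT cells and at 558 CPM per kb after LPS, and at 129.9 and 530.4 CPM per kb in KO cells, and in none of the 4 did its interval overlap that of the next member. In untreated WT Input the next was Tlr9 with 38.3 CPM per kb, followed by Tlr6 with 15.9, Tlr7 with 14.9 and Tlr4 with 9.85. The intervals of these neighbours overlapped, so their order is not resolved at this depth. After LPS in WT, Tlr1 with 23.8, Tlr7 with 16.7 and Tlr3 with 16.0 CPM per kb followed Cd14, again with overlapping intervals. In the WT RIP Cd14 was also first, with 169.9 and 591 CPM per kb. In the untreated KO RIP it stood at 105.3 CPM per kb beside Tlr8 at 108.95, with intervals that overlapped.

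The first question was how LPS changed the members in the Inputs, which hold the mRNA of the lysate. Cd14 and Tlr3 were higher after LPS in both genotypes, and Tlr4 and Tlr9 were lower in both. A ratio was called past the fold when it exceeded 2-fold after adding 1 read to each library, with at least 10 reads in the pair. By this rule 2 members were higher and 2 lower of the 5 that passed the read minimum in WT, and 2 were higher and 3 lower of 5 in KO. Over all genes, 14.8% were higher and 17.5% lower in WT, and 13.5% higher and 21.2% lower in KO.

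For Cd14, 37 reads in untreated WT Input (39.8 CPM) stood against 344 after LPS (181.3 CPM), and 56 (42.2 CPM) against 259 (172.4 CPM) in KO. The counted region of Cd14 has 226 bases (chr18:36725074-36725299, minus strand). The genotypes lay close together at either time, and both LPS libraries lay far above both untreated ones. On the log2 scale the LPS ratio was 2.15 in WT (1.69 to 2.72) and 2.01 in KO (1.61 to 2.47), and the difference between these was 0.14 (-0.50 to 0.79).

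Tlr3, the receptor for double-stranded RNA, had 6 reads in untreated WT Input (6.46 CPM) and 41 after LPS (21.6 CPM). In KO it had 13 (9.80 CPM) and 32 (21.3 CPM). Both LPS libraries were above both untreated ones. The log2 ratio was 1.55 in WT (0.50 to 3.27) and 1.06 in KO (0.15 to 2.17).

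Tlr4 moved the other way, from 13 reads (13.99 CPM) to 11 (5.80 CPM) in WT and from 22 (16.6 CPM) to 3 (1.997 CPM) in KO, both untreated libraries being the higher ones. The log2 ratio was -1.25 in WT (-2.57 to 0.00) and -2.70 in KO (-5.44 to -1.32). Tlr9, the receptor for unmethylated CpG DNA (266 bases, chr9:106226611-106226876, plus strand), had 13 reads in each untreated Input, which was 13.99 CPM in WT and 9.80 CPM in KO. After LPS it had 2 reads in WT (1.05 CPM) and 5 in KO (3.33 CPM). Its log2 ratio was -3.25 in WT (-6.92 to -1.59) and -1.40 in KO (-3.40 to 0.02). The upper ends of the intervals of Tlr4 in WT and of Tlr9 in KO reached 0.

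Tlr7, a receptor for single-stranded RNA, had 7 and 16 reads in untreated and LPS-treated WT Input (7.53 and 8.43 CPM) and 16 and 6 in KO (12.1 and 3.99 CPM). The log2 ratio was 0.06 in WT (-1.20 to 1.69) and -1.46 in KO (-3.24 to -0.17). The difference between the genotypes was 1.52, with an exact interval from -0.34 to 3.92, so it was not resolved. The other 5 members did not reach 10 reads in either pair of Inputs. Tlr1 was at 0 in both untreated Inputs and had 6 and 4 reads after LPS in WT and KO, and 3 reads, taken as the limit that a count of 0 allows, are 3.23 and 2.26 CPM in the untreated WT and KO Inputs. Tlr2 had from 0 to 6 reads, Tlr6 from 0 to 3, Tlr8 from 0 to 4 and Ly96 from 0 to 4 in the Inputs. A change of these members in the Input was not detectable at this depth.

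Of the 3 other Toll-like receptor genes found in the table (of Tlr5, Tlr11, Tlr12 and Tlr13), Tlr5 and Tlr12 had 2 reads and 1 read in all libraries together. Tlr13, a receptor for bacterial ribosomal RNA, had 70 and 24 Input reads in WT (75.3 and 12.6 CPM) and 88 and 10 in KO (66.4 and 6.66 CPM). It was lower after LPS in both, with log2 ratios of -2.54 (-3.31 to -1.89) and -3.20 (-4.43 to -2.37). Of the adaptors and kinases of the pathway (11 listed, 10 past the read minimum), 3 were higher in each genotype and none lower, with a median of 0.31 in WT and 0.28 in KO against -0.08 and -0.18 over all genes. Among them were Irak3, which restrains the pathway, with a log2 ratio of 2.93 in WT (2.35 to 3.73) and 3.14 in KO (2.54 to 3.95), and Irak2 with 1.63 and 1.92, while Myd88 had 1.07 and 1.23. Of the accessory and trafficking genes (20 listed, 19 past the minimum), 2 were higher and 6 lower in WT, and 1 was higher and 4 lower in KO, with medians of -0.40 and -0.41. Unc93b1, which carries the endosomal receptors, had -0.61 in WT and -0.25 in KO. Of 11 genes known to respond to LPS (12 symbols, Acod1 and its older name among them), all passed the minimum in WT and were higher. In KO all 10 past the minimum were higher. The list was made of known responders, with earlier results of these data known.

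**Figure D3:**
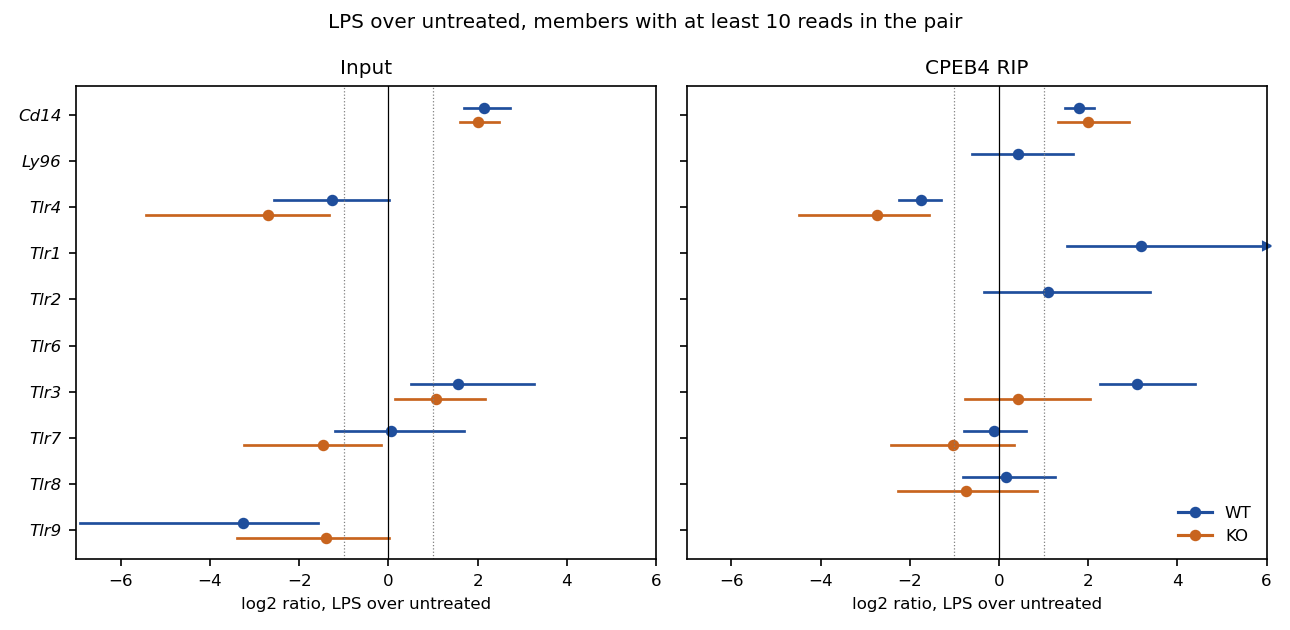
Log2 ratio of LPS-treated over untreated libraries for the members with at least 10 reads in the pair, in the Input (left) and in the CPEB4 RIP (right), with WT in blue and KO in orange. Each point is a pair of libraries, bars are exact 95% intervals of the reads, an arrowhead marks an interval that runs past the axis, and dotted lines mark 2-fold. Cd14 lies to the right and Tlr4 to the left in every pair, whereas Tlr3 in the RIP lies at 3.10 in WT and 0.42 in KO.

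In the RIPs, Cd14 and Tlr4 moved after LPS as they did in the Inputs, and Tlr3 was far higher in the WT RIP. In WT 4 members were higher and 1 lower of 8 past the read minimum, and in KO 1 was higher and 2 lower of 5. Over all genes 12.1% were higher and 21.9% lower in the WT RIP, and 14.1% higher and 21.7% lower in the KO RIP.

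Tlr3 had 9 reads in the untreated WT RIP (5.40 CPM) and 127 after LPS (51.0 CPM). In the KO RIP it had 7 (14.97 CPM) and 19 (21.8 CPM). The LPS-treated WT RIP was the highest of the 8 libraries for this gene, and its interval lay above all the others. The log2 ratio was 3.10 in WT (2.27 to 4.40) and 0.42 in KO (-0.77 to 2.04), and the difference between the genotypes was 2.67 (exact interval 0.84 to 4.46). The corresponding difference in the Inputs was 0.50 (-1.07 to 2.45).

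Tlr4 had 129 reads in the untreated WT RIP (77.4 CPM) and 57 after LPS (22.9 CPM), and 24 (51.3 CPM) and 6 (6.88 CPM) in the KO RIP. Both untreated RIPs were the higher ones. LPS over untreated was -1.75 in WT (-2.24 to -1.30) and -2.73 in KO (-4.48 to -1.57). The difference between the genotypes was 0.99 (-0.29 to 2.79).

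Cd14 had 92 reads in the untreated WT RIP (55.2 CPM) and 479 after LPS (192.2 CPM), and 16 (34.2 CPM) and 125 (143.4 CPM) in the KO RIP. The log2 ratios were 1.79 (1.47 to 2.14) and 1.99 (1.31 to 2.92). For Tlr1, with a counted region of 34 bases (chr5:64924811-64924844, minus strand), there was 1 read in each untreated RIP (0.60 CPM in WT, 2.14 CPM in KO). After LPS there were 26 in WT (10.4 CPM) and 6 in KO (6.88 CPM). Its log2 ratio was 3.17 in WT (1.51 to 9.48) and 0.91 in KO (-1.36 to 7.21), the latter under the read minimum. Tlr2 (147 bases, chr3:83836273-83836419, minus strand) had 4 and 15 reads in WT, with a log2 ratio of 1.10 whose interval spanned 0 (-0.32 to 3.38), and 2 and 1 in KO.

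Tlr7 had 32 and 45 reads in the WT RIP (19.2 and 18.1 CPM) and 11 and 10 in the KO RIP (23.5 and 11.5 CPM). The log2 ratio was -0.10 in WT (-0.78 to 0.61) and -1.02 in KO (-2.43 to 0.34), the latter being within 2-fold under each of the 3 other scalings (-0.81 to -0.77). Tlr8 (58 bases, chrX:167242696-167242753, minus strand) had a log2 ratio of 0.16 in WT (-0.81 to 1.26) and -0.75 in KO (-2.27 to 0.85). Ly96 (68 bases, chr1:16709538-16709605, plus strand) had 0.42 in WT (-0.61 to 1.67). Tlr9 had 4 and 2 reads in the untreated WT and KO RIPs and 0 in both after LPS, where 3 reads, taken as the limit that a count of 0 allows, are 1.20 CPM in WT and 3.44 CPM in KO. With so few reads a change of Tlr9 in the RIP was not detectable, the exact interval in WT reaching up to 0.02. Tlr6 (36 bases, chr5:64953106-64953141, minus strand) had 1 or 2 reads in every RIP and is given no ratio.

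The second question was which members were more abundant in the CPEB4 RIP than in the Input. Tlr4, Tlr7 and Tlr8 were over 2-fold higher in the WT RIP at both times and in the untreated KO RIP. Ly96 was over 2-fold higher in the WT RIP after LPS. In untreated WT cells the Input of Ly96 was at 0, so its call there, counted below, depends on the 1 read added. In WT 4 members were higher and 1 lower of 7 past the read minimum in untreated cells, against 25.5% and 21.5% of all genes. After LPS 6 were higher and none lower of 8, against 23.5% and 26.9%. In KO 3 were higher and none lower of 6 in untreated cells, against 18.2% and 12.0%, and 2 were higher and none lower of 4 after LPS, against 17.2% and 12.0%. RIP and Input also differed in the library preparation, since ribosomal RNA was depleted in the Inputs only.

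Tlr4 had a log2 RIP over Input ratio of 2.37 (1.64 to 3.42) in untreated WT cells and of 1.62 (0.73 to 2.53) in untreated KO cells. After LPS it was 1.88 in WT (1.03 to 3.06), and in KO 6 RIP reads and 3 Input reads gave 1.59 (-0.44 to 4.41), under the read minimum. For comparison, the mRNA of Cpeb4 had 2.67 (2.41 to 2.96) and 2.50 (2.31 to 2.70) in WT and 2.29 (1.86 to 2.75) and 2.79 (2.44 to 3.18) in KO. The Cpeb4 ratio was thus over 2-fold in the KO RIPs as well, where the antigen is missing.

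Tlr3 was not higher in the RIP of untreated WT cells, with -0.33 (-1.91 to 1.51), and stood at 1.21 (0.72 to 1.78) after LPS. In KO it had 0.70 (-0.96 to 2.04) and 0.06 (-0.87 to 0.90). The change of the ratio with LPS was 1.54 in WT (exact interval -0.37 to 3.24) and -0.63 in KO (-2.30 to 1.23), so neither was resolved from 0.

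Tlr7 had 1.20 (0.14 to 2.77) and 1.04 (0.25 to 2.02) in untreated and LPS-treated WT cells, and 1.001 (-0.29 to 2.16) and 1.44 (-0.08 to 3.27) in KO cells, the untreated KO value being just past the 2-fold limit and falling short of it under each of the 3 other scalings (0.23 to 0.94). Tlr8 had 14 RIP reads against 1 Input read in untreated WT cells, a log2 ratio of 2.06 (0.25 to 8.37), and 24 against 2 after LPS, which gave 2.67 (1.18 to 6.32). In untreated KO cells it had 8 against 4, or 2.35 (0.60 to 4.69). In KO cells after LPS, 9 RIP reads stood against an Input at 0, with an interval that starts at 1.77 and is open upward, under the read minimum. Its RIP reads were thus more frequent than its Input reads in both genotypes.

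Ly96 had 11 RIP reads (6.60 CPM) and 0 Input reads in untreated WT cells, with an exact interval of the log2 ratio that starts at 0.49, below the 2-fold limit, and is open upward. After LPS 23 (9.23 CPM) stood against 2 (1.05 CPM), a log2 ratio of 2.61 (1.11 to 6.26). In KO it had 1 RIP read at each time against 3 and 4 Input reads, and the ratio after LPS was -0.54 (-6.84 to 2.12). The KO RIPs, which were also shallower, thus held a single read each.

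Cd14, the most abundant member, was close to its Input in every RIP when scaled to 3′-UTR reads, with 0.45 (-0.09 to 1.06) and 0.08 (-0.12 to 0.29) in WT and -0.24 (-1.21 to 0.52) and -0.26 (-0.59 to 0.05) in KO. On this scale Tlr9 was the only member past the fold in the lower direction, with -2.33 in untreated WT cells (-4.62 to -0.85) and -0.72 in untreated KO cells (-4.39 to 0.95). Tlr1 had 1.55 (0.41 to 3.29) in WT after LPS and 1.27 (-0.71 to 3.64) in KO, and Tlr2 had 0.80 (-0.52 to 2.58) in WT. Of the adaptors, none was higher in any RIP, with 1 lower in WT at each time, 2 lower in untreated KO cells and none lower in KO after LPS, out of 10.

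The KO calls depended on the scaling. Scaled to library totals, all genes shifted by -0.77 in untreated KO cells, by -0.68 in KO after LPS and by 0.51 in WT after LPS. Tlr4 then stood at 0.86 and Tlr7 at 0.23 in untreated KO cells, both within 2-fold, and Tlr8 stood at 1.58. After LPS in KO, Tlr7 stood at 0.75 and Tlr1 at 0.59, so that no member was higher. Cd14 moved to -1.01 and -0.94 in KO and to 0.60 in WT after LPS, and Tlr9 to -1.49 in untreated KO cells, which put both Tlr9 and Cd14 past the fold in the lower direction there.

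**Figure D4:**
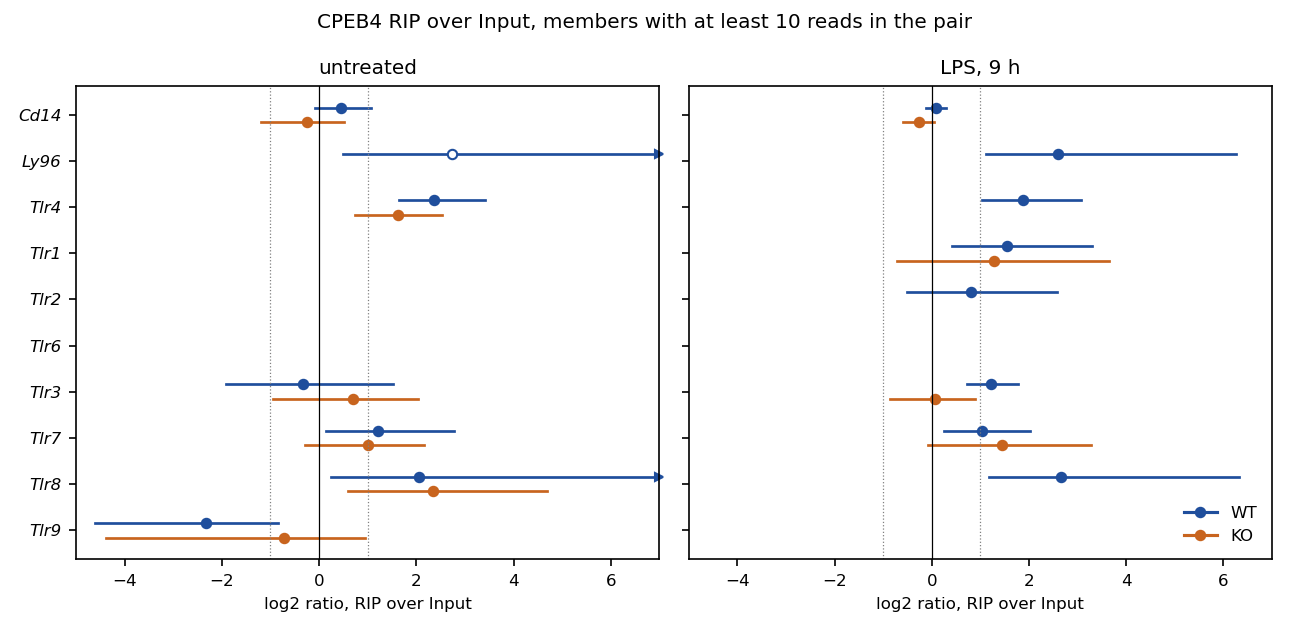
Log2 ratio of CPEB4 RIP over Input for the members with at least 10 reads in the pair, in untreated (left) and LPS-treated cells (right), with WT in blue and KO in orange. Each point is a pair of libraries, bars are exact 95% intervals of the reads, arrowheads mark intervals that run past the axis, dotted lines mark 2-fold, and the open circle has an Input at 0, so that its place depends on the 1 read added. Scaled to 3′-UTR reads, Cd14 lies near 0 in both panels. In untreated cells Tlr4, Tlr7 and Tlr8 lie to the right in both genotypes. After LPS these genes lie to the right in WT, and of them only Tlr7 has a KO point. The KO bars of Tlr7 span 0. Library totals move the KO points to the left by 0.77 in untreated cells and by 0.68 after LPS.

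The third question was which members were more abundant in the WT RIP than in the KO RIP, where the antigen is missing. No member was over 2-fold higher in untreated cells, while Tlr2, Tlr3, Tlr4 and Ly96 were after LPS. In untreated cells none was higher and 2 lower of 6 past the read minimum, against 9.60% and 14.2% of all genes. After LPS 4 were higher and none lower of 8, against 9.71% and 17.5%.

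Tlr4 was at 77.4 CPM in the untreated WT RIP against 51.3 CPM in the KO RIP, a log2 ratio of 0.55 (-0.04 to 1.29), and at 22.9 against 6.88 CPM after LPS, a ratio of 1.53 (0.52 to 3.24). The Inputs after LPS differed in the same direction, with 11 and 3 reads and a ratio of 1.25 (-0.38 to 4.02). Tlr3 was at 5.40 against 14.97 CPM in the untreated RIPs, with 9 and 7 reads, and had -1.51 (-3.06 to 0.19). After LPS it was at 51.0 against 21.8 CPM, a ratio of 1.16 (0.523 to 2.004), while its Inputs differed by 0.01 (-0.68 to 0.73). Ly96 had 23 reads against 1 after LPS (9.23 and 1.15 CPM), a ratio of 2.07 (0.39 to 8.37), and 11 against 1 before, a ratio of 0.75 (-1.16 to 7.05). Tlr2 had 15 against 1 after LPS, with 1.48 (-0.31 to 7.79).

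Cd14 had 0.62 (-0.08 to 1.56) in untreated cells and 0.41 (0.14 to 0.72) after LPS. Tlr7 had -0.37 (-1.32 to 0.84) and 0.55 (-0.36 to 1.81). Tlr8 had -1.10 (-2.38 to 0.43) and -0.19 (-1.26 to 1.19), and Tlr1 had 0.43 (-0.71 to 2.17) after LPS. The intervals of Tlr7, Tlr8 and Tlr1 all spanned 0.

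These ratios depended on what the libraries were scaled to, because a larger part of the WT RIP libraries fell on 3′-UTRs. Scaled to the library totals, all genes shifted up by 0.84 in untreated cells and by 1.14 after LPS. Tlr4 then stood at 1.39 and 2.68, Cd14 at 1.46 and 1.55, and Tlr7 and Tlr8, which were negative in the untreated RIPs, at 0.47 and -0.25. Tlr3 in the untreated RIPs stood at -0.67, within 2-fold. What part the share of 3′-UTR reads had in the result was not tested.

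**Figure D5:**
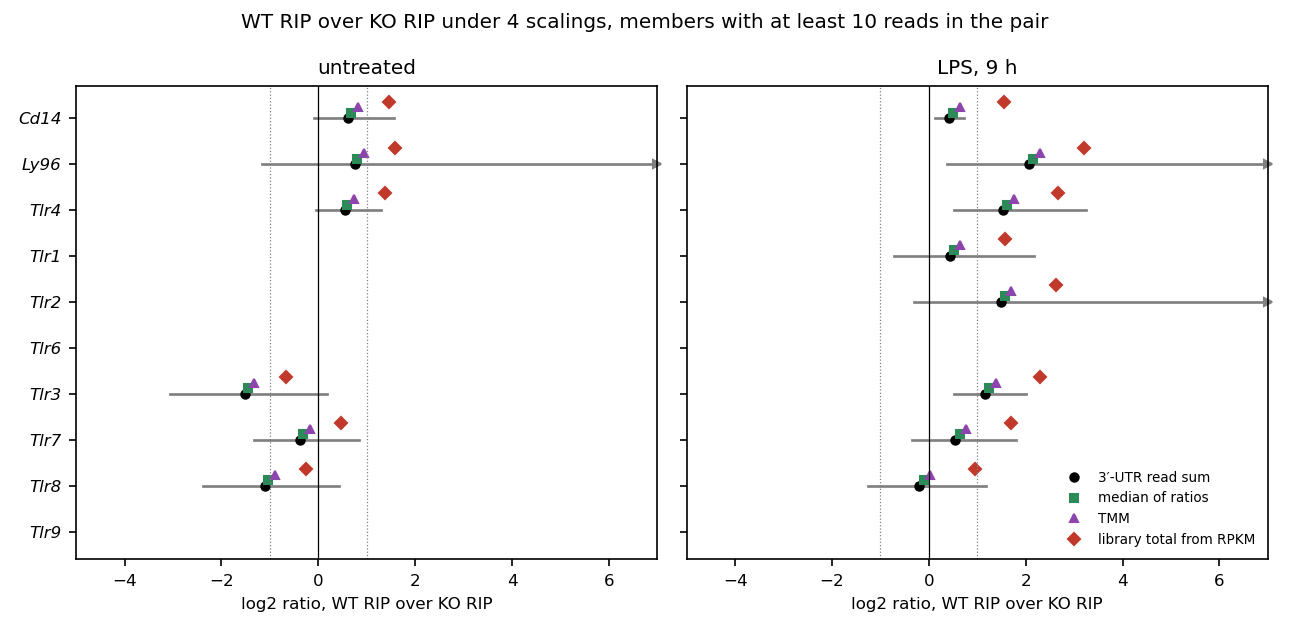
Log2 ratio of WT RIP over KO RIP for the members with at least 10 reads in the pair, in untreated (left) and LPS-treated cells (right). The circle is the value scaled to 3′-UTR reads with its exact 95% interval of the reads (grey bar, an arrowhead where it runs past the axis), and the other marks, set slightly above it, are the values under 3 other scalings. Scaling to the library totals moves every member to the right, by 0.84 in untreated cells and 1.14 after LPS.

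With the Inputs taken into account, (WT RIP over WT Input) over (KO RIP over KO Input), only 2 members had at least 10 reads in all 4 libraries at either time. In untreated cells these were Tlr4 with 0.75 (-0.42 to 1.92) and Cd14 with 0.69 (-0.28 to 1.66), none past the fold, against 11.3% higher and 15.3% lower of all genes. After LPS they were Tlr3 with 1.15 (0.19 to 2.11), which was past the fold, and Cd14 with 0.34 (-0.02 to 0.71), against 9.69% and 18.0%. For Tlr4 after LPS, 57, 11, 6 and 3 reads in the WT RIP, WT Input, KO RIP and KO Input gave 0.29 with an exact interval from -2.66 to 2.66. For Ly96 after LPS, 23, 2, 1 and 4 reads gave 3.14 (0.04 to 10.02).

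Between the Inputs of the 2 genotypes no member was past the fold in untreated cells, out of 5, where 2.43% of all genes were higher in WT and 4.79% lower. After LPS Tlr4 alone was higher, out of 5, against 3.21% higher and 2.43% lower of all genes. Cd14 differed by -0.07 (-0.72 to 0.54) and 0.07 (-0.16 to 0.31).

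Over the 8 libraries and 2615 genes with at least 20 reads in each, the genes whose log2(CPM + 1) was most like that of Cd14 were Cers6 (Pearson r = 0.994), Hk2 (0.991) and Tor3a (0.990). The same measure was taken for Tlr4, although it had fewer reads, and gave Edem3 (0.990), Plin3 (0.987) and Sms (0.986). The points share their libraries and depth, and these values describe the libraries only.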

How the data were processed

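Total RNA of the cell lysate (Input) and RNA precipitated with anti-CPEB4 (RIP) were sequenced as single reads of 100 bases. The authors aligned the reads to mm10 with Bowtie2 2.2.2 in local mode, removed duplicates and deposited raw counts of reads over the Ensembl 3′-UTR regions of each gene, lanes 7 and 8 of a library being added together in 1 column. The deposited RPKM values divide these counts by region length and library total, and served here only to recover the library totals. MACS 1.4.2 peaks, p-values and fold changes of the authors' own comparisons stand in the same tables and were not used. The 4 deposited tables repeat the same counts. All 8 per-library count columns were matched to the labels.

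Of 31117 rows, 495 had no gene symbol. They held from 0.902% to 1.04% of the reads and were left out. The library size was the summed count of all rows with a symbol, and each of the 14925 genes was represented by its region with the most reads. Counts were divided by this library size, and log2 ratios were taken after adding 1 read to each library. Intervals at 95% were Wilson intervals for levels, exact conditional binomial intervals for ratios of 2 libraries, and normal intervals for ratios of ratios with at least 10 reads in each library. Below 10 reads an exact conditional odds-ratio interval was used, and also wherever the text names it as exact, a choice made after seeing the data. Reads are not independent molecules where amplification copies remain, and the intervals hold no variation between cultures. A gene was called past the fold at over 2-fold with at least 10 reads in the libraries compared. Where a library was at 0, no fold is given, although the call was made on the ratio with the 1 read added. The limit printed for such a library is the level of 3 reads, which lies below the upper end of the Wilson interval in the plot of levels. The calculations were made with Python 3.11.15, numpy 2.4.6, pandas 2.3.3 and scipy 1.17.1, and tested on simulated data. Trimmed mean of M-values (TMM) factors came from edgeR 4.0.16 in R 4.3.3, which was used for nothing else.

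The named genes were the 10 members, Cpeb4, the 3 genes most like Cd14 and Tlr4 over the libraries, and at most 5 genes per pathway list, taken from those with the most reads. The members and all lists (other receptors, accessory and trafficking genes, adaptors and kinases, LPS response, cell type markers) were chosen with earlier results of these data known. Alternatives were library totals, TMM and median-of-ratios scaling, 0.1 added reads, a minimum of 50 reads, a limit of 1.5-fold, and the longest or the sum of all regions of a gene. Sequences were read from GRCm38.p6, the assembly of mm10.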

Additional observations from a re-analysis of the deposited data

Results flagged for a closer look

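The change of Tlr3 with LPS differed between the genotypes in the RIP. The reads went from 9 to 127 in WT and from 7 to 19 in KO, and the log2 change was larger by 2.67 in WT (exact interval 0.84 to 4.46). The interval covers the counting error of 4 libraries, and a difference between replicates could not be tested with 1 library per group. All 10 members were screened for such a difference in Input and RIP, and the interval is not adjusted for that. In the untreated RIPs WT was the lower one, at 5.40 against 14.97 CPM in KO. In the Inputs the difference was 0.50 (-1.07 to 2.45). The change of the RIP over Input ratio with LPS was not resolved from 0 in either genotype. The share of 3′-UTR reads moved with the result, from 48.9% to 70.1% in the WT RIP and from 27.3% to 31.8% in the KO RIP, and scaled to the library totals the difference was 2.97. What part of the result goes with that share was not tested.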

How the results depend on the processing

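No result was tested, as each group held 1 library, and no paired analysis was possible because the lanes repeat the same library and leave no residual spread. Of 76 member ratios, 67 stayed within their interval when scaled to library totals, 75 with TMM and 76 with median-of-ratios factors. With 0.1 reads added, the longest region or the sum of regions, 76 did. No called ratio changed sign in any of these. The longest region of each member was the one already counted, so that setting could not change a member's value. Where few reads make an interval wide, staying within it asks little.

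Counts of members past the fold that changed by over 1.5 times are given with the count reported above in brackets. Shares over all genes were taken only for the settings used above, so the changed counts have no background beside them. With at least 50 reads, the LPS change in the Input left 1 higher (2) and 0 lower (2) in WT, and 1 higher (2) and 0 lower (3) in KO, and that in the RIP left 2 higher (4) in WT and 0 lower (2) in KO. RIP over Input left 1 higher (4) and 0 lower (1) in untreated WT, 3 higher (6) in WT after LPS, and 0 higher in untreated (3) and LPS-treated KO (2). WT over KO left 0 lower (2) in the untreated RIPs, 2 higher (4) in the LPS RIPs, 0 higher (1) in the LPS Inputs and 0 higher (1) in the Input-corrected ratio after LPS.

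Scaled to library totals, the KO RIP had 1 lower after LPS (2), untreated KO had 1 higher (3) and 2 lower (0) in RIP over Input, and LPS-treated KO had 0 higher (2). WT over KO had 3 higher (0) and 0 lower (2) in the untreated RIPs, 7 higher (4) in the LPS RIPs, and 2 higher in the Input-corrected ratio at both times (0 and 1). All genes shifted up with them, by 0.84 in the untreated RIPs and by 1.14, itself over 2-fold, in the LPS RIPs. In the Input-corrected ratio the shift was 0.83 and 1.20. These counts therefore say nothing particular about the members. TMM gave 1 lower (2) in the KO RIP after LPS and 1 lower (2) for WT over KO in the untreated RIPs, and median-of-ratios factors gave 1 lower (2) in the former.

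With 0.1 reads added, 1 was lower (0) in RIP over Input in untreated KO, 1 higher (0) for WT over KO in the untreated RIPs and 2 higher (1) in the LPS Inputs. At 1.5-fold these were 1, 2 and 2, and the Input-corrected ratio in untreated cells had 2 higher (0). The sum over distinct regions gave 1 lower (0) for WT over KO in the untreated Inputs and 2 higher (1) in the LPS Inputs. Depth limited Tlr1, Tlr2, Tlr6, Tlr8 and Ly96 most, as these had from 0 to 6 Input reads.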
